A study of Mus musculus with 12 samples.

Results

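A set of 9 genes that mark repopulating hematopoietic stem cells (HSCs) was followed across cultured mouse HSCs: Fgd5, Ctnnal1, Procr, Esam, Sult1a1, Mmrn1, Hoxb5, Tek and Mllt3. They were chosen by name, with earlier results of these data known, as loci used for stem cell reporter mice, as surface proteins used to sort stem cells, or as parts of stem cell expression signatures. All 9 members were found among the 53465 genes of the count table, and all 9 were among the 19830 genes tested. RNA was sequenced in bulk from mouse bone marrow cells that all lacked lineage markers and CD48 and carried Kit, Sca1 and CD150. The 12 libraries form 4 groups of 3 samples. Long-term HSCs (LT-HSCs) lacked CD34 and short-term HSCs (ST-HSCs) carried it, and each population was grown with or without nicotinamide riboside (NR), a vitamin B3 form from which cells make NAD. All cells, controls included, spent 2 days in Stemline II medium with 100 ng/ml stem cell factor (SCF) and 2 ng/ml Flt3 ligand, and the NR groups received 1 mM NR, renewed after 24 h. The RNA was therefore read in cells that had left the marrow and had been stimulated to grow. Strain, age, genotype, and whether the samples of a group came from separate mice or cultures are details the labels leave out. The p-values thus reflect the scatter of these samples alone, and that scatter may be technical.

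The members belong to different parts of the cell. Procr is the endothelial protein C receptor (EPCR, CD201), Esam is an adhesion molecule of the junctional adhesion family, and Tek is TIE2, the receptor for angiopoietins through which niche signals are known to hold stem cells at rest. Fgd5 is an exchange factor for the GTPase CDC42, Ctnnal1 is alpha-catulin, a relative of alpha-catenin, and Mmrn1 is multimerin 1, a secreted protein stored in platelets and endothelial cells. Hoxb5 is a homeodomain transcription factor, Mllt3 is AF9, a chromatin reader of the super elongation and DOT1L complexes, and Sult1a1 is a cytosolic sulfotransferase. Several of these genes are also used by endothelial cells or megakaryocytes, so markers of both were measured beside them.

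The data show a shared pattern and a split. In 8 of 9 members RNA was higher in LT-HSCs than in ST-HSCs after culture, from 1.66-fold for Esam to 9.11-fold for Sult1a1 in control culture, while Tek differed by 1.11-fold and did not pass the test. Over all tested genes 3.51% were called higher and 1.5% lower in control culture. NR changed 5 members in ST-HSCs: Procr rose 4.33-fold, Sult1a1 3.01-fold, Fgd5 1.92-fold and Esam 1.27-fold, while Ctnnal1 fell to 0.721-fold. Of all tested genes 5.82% were called higher and 11.1% lower there. In LT-HSCs 1 member was called with NR, Ctnnal1, at 0.824-fold, where 2.38% of all tested genes were called higher and 7.58% lower. The Ctnnal1 call in LT-HSCs was lost in 4 of 9 alternative settings and in 5 of 12 fits that left out 1 library each. Mmrn1, not called here, was called higher in 8 of those 9 settings and in 1 of those 12 fits. In the direct test of whether the NR effect differed between the populations, edgeR's main fit called 0 of 9 members and 0.0101% of all tested genes. A second tool, DESeq2, called Sult1a1 and Procr in that test, and over all genes 95 higher and 41 lower.

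Promoter sequence is shown for the members that NR changed in ST-HSCs and that have an entry in the RefSeq table (GRCm38.p6). Of the 9 members 7 have entries, in 8 windows, and Esam and Hoxb5 have none. Each line gives the 250 bases upstream of the annotated start, 5′ to 3′ on the gene's own strand. Capitals mark matches to the motifs searched.
Procr, chr2:155750967-155751216, plus strand: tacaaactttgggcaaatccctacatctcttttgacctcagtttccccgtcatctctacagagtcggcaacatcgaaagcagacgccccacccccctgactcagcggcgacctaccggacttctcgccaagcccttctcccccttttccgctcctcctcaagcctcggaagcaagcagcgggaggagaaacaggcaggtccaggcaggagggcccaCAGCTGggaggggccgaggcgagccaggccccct
Fgd5, chr6:91978715-91978964, plus strand: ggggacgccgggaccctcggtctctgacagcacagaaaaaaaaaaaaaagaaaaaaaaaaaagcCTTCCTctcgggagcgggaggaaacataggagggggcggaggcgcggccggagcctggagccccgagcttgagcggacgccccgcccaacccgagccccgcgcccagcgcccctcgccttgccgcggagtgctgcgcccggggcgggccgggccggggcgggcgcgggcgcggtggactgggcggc
Sult1a1, chr7:126676419-126676668, minus strand: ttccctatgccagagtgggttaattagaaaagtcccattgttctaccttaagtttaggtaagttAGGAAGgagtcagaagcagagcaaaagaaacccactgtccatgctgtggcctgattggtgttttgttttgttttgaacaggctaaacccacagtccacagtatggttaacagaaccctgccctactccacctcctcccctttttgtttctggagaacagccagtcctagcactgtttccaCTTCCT
Ctnnal1, chr4:56865212-56865461, minus strand: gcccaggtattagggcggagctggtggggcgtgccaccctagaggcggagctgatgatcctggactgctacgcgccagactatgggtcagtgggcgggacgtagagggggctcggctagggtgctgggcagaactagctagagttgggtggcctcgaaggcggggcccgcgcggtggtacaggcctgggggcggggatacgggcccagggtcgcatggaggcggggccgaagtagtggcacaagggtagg
GC content was 61.6% for Procr, 71.6% for Fgd5, 45.6% for Sult1a1 and 68.4% for Ctnnal1, against a median of 52.4% over all upstream sequences of the table. Each motif has 6 letters and was searched on both strands in 300 bases, the 250 upstream bases and those just past the start. AGGAAG, the core of ETS factors, lies 186 bases before the start of Fgd5 (on the other strand) and 186 and 6 bases before that of Sult1a1. It occurs in 2 of 8 member windows and in 35.4% of all 32851 windows. CAGCTG, an E-box, lies 34 bases before the RefSeq start of Procr and 202 bases before that of Mllt3, in 2 of 8 windows and 16.3% of all. AGATAA, the GATA motif, was found 36 bases past the start of Tek, in 1 of 8 windows and 11.2% of all, and TGTGGT, the RUNX motif, in 0 of 8 and 16.8% of all. The Ctnnal1 window holds none of the 4 motifs. Positions count from the RefSeq start. GENCODE M21 places the starts of Procr, Fgd5 and Sult1a1 further upstream, so that the ends of these 3 printed windows, the Procr E-box included, lie inside the gene by that annotation. A match is a run of letters and does not show that a factor binds there.

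Between 24.6 M and 35.5 M reads per library were assigned to genes (median 31.7 M), so the lowest member value, Sult1a1 in control ST-HSCs, still rested on 17 to 32 reads per library. Reads in no annotated gene made up 8.69% to 28.5% of reads, and the libraries labelled NR sample 3 stand apart, with 28.5% in LT-HSCs and 26.2% in ST-HSCs against at most 17.0% elsewhere. The members called with NR, and counts of the HSC and endothelial lists, are therefore given below also without those 2 libraries. The sort was checked on the genes of its own markers, which are no finding between the groups. Cd34 averaged 259 CPM (read counts scaled to a common library total) in control LT-HSCs, 242 with NR, 627 in control ST-HSCs and 704 with NR. Kit averaged 1380 to 1550 CPM in the 4 groups. Ly6a, which encodes Sca1, averaged 37.6 and 32.7 CPM in LT-HSCs but 6.24 and 8.04 CPM in ST-HSCs. Slamf1, which encodes CD150, averaged 39 and 29.4 CPM against 18.9 and 12.1 CPM. Both populations were nevertheless sorted as positive for both proteins. Cd48 was low, at 0.831 and 0.827 CPM in LT-HSCs and 5.07 and 2.57 CPM in ST-HSCs.

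All values per library below are CPM on library sizes scaled by edgeR's TMM factors, listed for samples 1, 2 and 3. CPM compares 1 gene between libraries. To compare genes, CPM was divided by the exon length in kilobases, and on that scale the mean level over the 12 libraries was highest for Mmrn1 (95.3 CPM per kb), followed by Esam (44.1), Tek (18.1), Ctnnal1 (13), Fgd5 (6.98), Procr (5.04), Mllt3 (4.25), Sult1a1 (3.18) and Hoxb5 (1.56). The members that varied most were not the most abundant ones. The ratio of the highest to the lowest library was 15.4 for Sult1a1, 14.7 for Procr and 7.15 for Fgd5, and it lay between 1.57 (Tek) and 3.32 (Hoxb5) for the others.

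**Figure D1:**
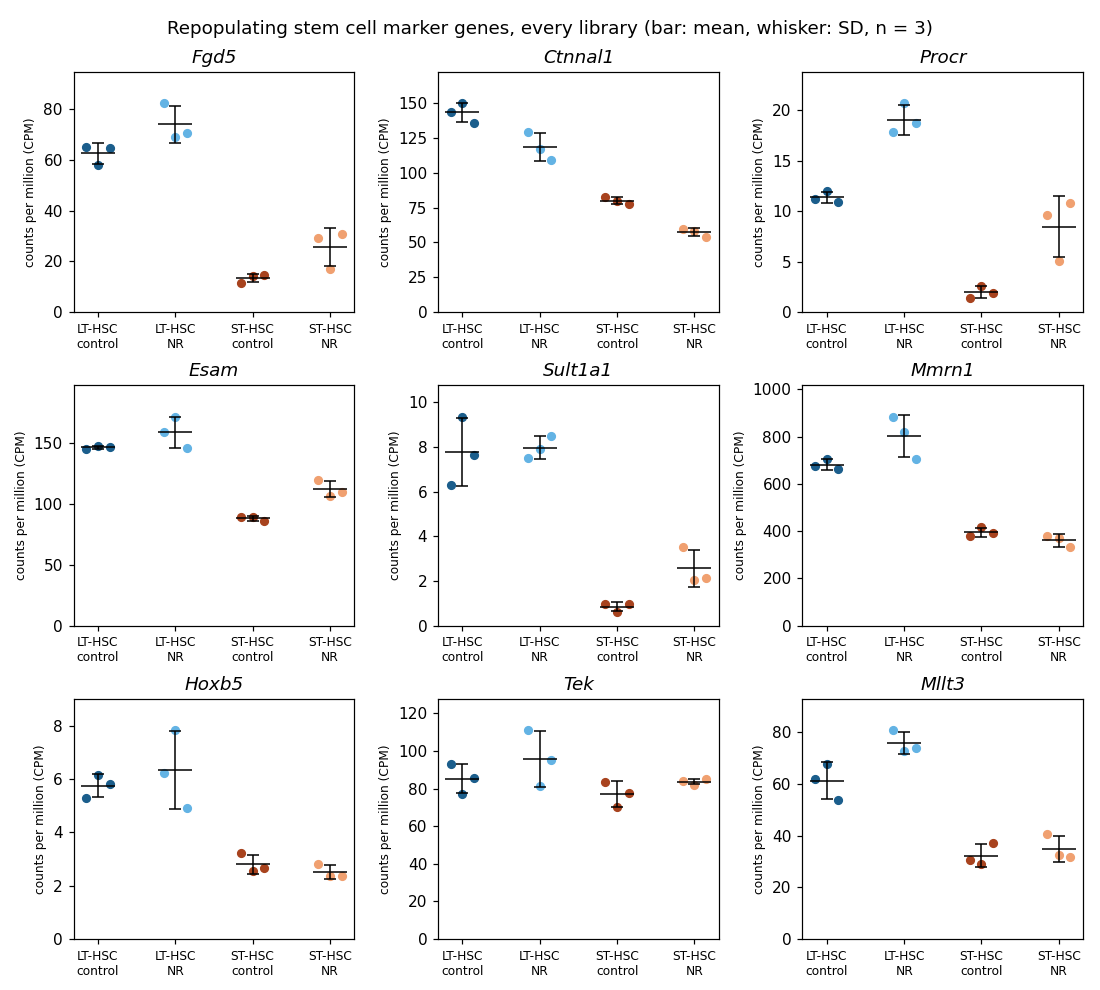
RNA level of each of the 9 members (one panel per gene, each with its own linear vertical axis in CPM) in the 12 libraries, grouped as control and NR LT-HSCs and control and NR ST-HSCs. Points are libraries, bars are group means and whiskers are SD. Procr, Sult1a1 and Fgd5 have the largest ratios of the highest to the lowest library, while the 4 groups of Tek overlap.

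The first question was whether these genes still separate the CD34- from the CD34+ sort after 2 days in culture. In control culture 8 of 9 members were called higher in LT-HSCs and 0 lower, with groups that did not overlap in those 8. Over all tested genes 3.51% were called higher and 1.5% lower, and 12.4% had higher, non-overlapping groups. The members' median log2 difference was 0.92, against -0.05 over all genes. With NR in both populations 8 of 9 were again called higher and 0 lower, against 3.8% and 2.27% of all genes. Their groups again did not overlap, against 9.96% of all genes with higher and 7.59% with lower non-overlapping groups. The members' median was 1.16 and that of all genes 0.02. Averaged over both cultures 8 members were higher and 0 lower, where 6.72% and 3.88% of all genes were. In bulk RNA fewer cells that use a gene and less RNA per cell cannot be told apart, here and in every comparison that follows.

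Gene positions are those of GENCODE M21 on GRCm38, in which all 9 members are protein-coding genes, and counts cover their exons together. Among the surface proteins, Procr (ENSMUSG00000027611, chr2:155751117-155755471, plus strand) had the widest separation. Control LT-HSCs had 11.2, 12 and 10.9 CPM (11.4 ± 0.557, SD, n = 3) and NR LT-HSCs 17.8, 20.7 and 18.7 CPM (19.1 ± 1.45). Control ST-HSCs had 1.41, 2.57 and 1.9 CPM (1.96 ± 0.585) and NR ST-HSCs 9.57, 5.06 and 10.8 CPM (8.48 ± 3.03). The 4 groups stand in steps without overlap, NR LT-HSCs highest and control ST-HSCs lowest, but the highest NR ST-HSC library lies just under the lowest control LT-HSC library. The gap between those neighbouring groups was not a planned comparison and was not tested. In edgeR's quasi-likelihood test with Benjamini-Hochberg adjustment, which gave every adjusted p of the report unless another tool is named, LT-HSCs exceeded ST-HSCs by 2.54 ± 0.26 (log2 ± SE; 95% interval 1.97 to 3.11; 5.83-fold; adjusted p = 7.16e-05) in control culture. With NR the difference was 1.17 ± 0.23 (0.66 to 1.68; 2.25-fold; adjusted p = 0.00861).

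Esam (ENSMUSG00000001946, chr9:37528078-37538319, plus strand) was abundant and varied little. Control LT-HSCs had 145, 148 and 147 CPM (147 ± 1.48), NR LT-HSCs 159, 172 and 146 CPM (159 ± 13.1), control ST-HSCs 89.5, 89.2 and 86.2 CPM (88.3 ± 1.84) and NR ST-HSCs 120, 107 and 110 CPM (112 ± 7.01). Every LT-HSC library lies above every ST-HSC library, and within LT-HSCs the NR and control libraries overlap. The difference between LT-HSCs and ST-HSCs was 0.73 ± 0.07 (1.66-fold; adjusted p = 3.43e-05) in control culture and 0.50 ± 0.07 (1.41-fold; adjusted p = 0.000632) with NR.

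Tek (ENSMUSG00000006386, chr4:94739289-94874976, plus strand) was the exception among the receptors. Control LT-HSCs had 93, 77.3 and 85.5 CPM (85.2 ± 7.85), NR LT-HSCs 111, 81.3 and 95.3 CPM (95.7 ± 14.6), control ST-HSCs 83.6, 70.2 and 77.5 CPM (77.1 ± 6.72) and NR ST-HSCs 84.1, 82 and 84.9 CPM (83.7 ± 1.52). Group means run from NR LT-HSCs down to control ST-HSCs, but each group overlaps its neighbours. The log2 difference between LT-HSCs and ST-HSCs was 0.14 ± 0.11 (interval -0.09 to 0.38; adjusted p = 0.656) in control culture and 0.19 ± 0.11 (-0.04 to 0.42; adjusted p = 0.416) with NR, intervals that leave room for a difference of either sign. Averaged over both cultures the difference was 0.17 ± 0.08 (0.01 to 0.33; adjusted p = 0.209), an interval just above 0, and was not called. The genes around TIE2 gave few calls. Of 9 listed genes of the angiopoietin and TIE pathway 8 were tested, and Tie1, the partner receptor, was the 1 called higher in LT-HSCs, by 0.49 ± 0.07 in control culture (adjusted p = 0.000502) and 0.53 ± 0.07 with NR (adjusted p = 0.000245), with 0 lower. Angpt1, the agonist ligand, averaged 676 to 724 CPM in the 4 groups.

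Of the reporter loci, Fgd5 (ENSMUSG00000034037, chr6:91978878-92076004, plus strand) separated the populations most. Control LT-HSCs had 65.2, 57.8 and 64.6 CPM (62.5 ± 4.12) and NR LT-HSCs 82.3, 69.1 and 70.5 CPM (74 ± 7.23). Control ST-HSCs had 11.5, 14.1 and 14.6 CPM (13.4 ± 1.67) and NR ST-HSCs 29.2, 17.1 and 30.9 CPM (25.7 ± 7.5). No 2 groups overlap, and the distance between the LT-HSC and ST-HSC groups is far wider than the steps within each. The log2 difference was 2.22 ± 0.18 (interval 1.82 to 2.62; 4.66-fold; adjusted p = 1.17e-05) in control culture and 1.52 ± 0.18 (2.88-fold; adjusted p = 0.000151) with NR. The other FGD family members and CDC42 pathway genes, 13 tested, gave 0 edgeR calls in control culture (2 at an unadjusted p under 0.05, and 2 higher in DESeq2) and 1 with NR (Fgd1, 0.62 ± 0.16; adjusted p = 0.0339). Over all genes 14.9% had an unadjusted edgeR p under 0.05 in control culture and 16.9% with NR. These shares also apply to the lists given with Ctnnal1, Hoxb5 and Mllt3 below.

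Ctnnal1 (ENSMUSG00000038816, chr4:56810935-56865188, minus strand) had control LT-HSC values of 144, 150 and 136 CPM (144 ± 7.16) and NR LT-HSC values of 129, 117 and 109 CPM (118 ± 9.93). Control ST-HSCs had 82.5, 79.6 and 77.5 CPM (79.9 ± 2.47) and NR ST-HSCs 60, 58.5 and 54.2 CPM (57.6 ± 3.03). The 4 groups do not overlap and run in another order than those of Procr and Fgd5, with control above NR in both populations. LT-HSCs were higher by 0.85 ± 0.07 (1.80-fold; adjusted p = 1.83e-05) in control culture and by 1.04 ± 0.07 (2.06-fold; adjusted p = 3.49e-06) with NR. Its relatives, 10 alpha-catenin family members and partners, gave 0 edgeR calls between the populations in either culture. At an unadjusted p under 0.05 there were 3 in control culture and 1 with NR, and DESeq2 called 1 lower and 0.

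Hoxb5 (ENSMUSG00000038700, chr11:96303336-96306121, plus strand) was the least abundant member per exon length. Control LT-HSCs had 5.3, 6.14 and 5.81 CPM (5.75 ± 0.423), NR LT-HSCs 6.23, 7.83 and 4.92 CPM (6.33 ± 1.46), control ST-HSCs 3.21, 2.54 and 2.67 CPM (2.81 ± 0.359) and NR ST-HSCs 2.81, 2.36 and 2.38 CPM (2.52 ± 0.257). NR and control overlap within each population, and the populations do not overlap. The log2 difference was 1.03 ± 0.19 (2.05-fold; adjusted p = 0.0059) in control culture and 1.33 ± 0.19 (2.51-fold; adjusted p = 0.000881) with NR. The antisense gene Hoxb5os shares 100 exon bases (3.6% of the exon length of Hoxb5), and since the strand setting of the counting is not given, reads of the pair cannot be separated there. Of 15 other genes of the Hoxb cluster and HOX cofactors 12 were tested, with 0 called by edgeR between the populations in control culture (4 at an unadjusted p under 0.05, and 3 higher in DESeq2) and 1 with NR (Hoxb6, 1.80 ± 0.47; adjusted p = 0.0376). Averaged over both cultures 4 of the 12 were higher and 0 lower, among them Hoxb6 at 1.68 ± 0.33 (adjusted p = 0.00454) and Hoxb2 at 0.79 ± 0.21 (adjusted p = 0.0256).

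Mllt3 (ENSMUSG00000028496, chr4:87769925-88033364, minus strand) had 62.1, 67.9 and 53.7 CPM in control LT-HSCs (61.3 ± 7.11) and 80.8, 72.6 and 74.1 CPM in NR LT-HSCs (75.9 ± 4.36). Control ST-HSCs had 30.6, 28.9 and 37.3 CPM (32.3 ± 4.43) and NR ST-HSCs 40.6, 32.5 and 31.6 CPM (34.9 ± 4.93). The 2 LT-HSC groups lie apart from each other and from ST-HSCs, whose groups overlap. The log2 difference was 0.92 ± 0.12 (1.90-fold; adjusted p = 0.000511) in control culture and 1.12 ± 0.12 (2.17-fold; adjusted p = 9.81e-05) with NR. Of 18 genes of the super elongation and DOT1L complexes in which AF9 works 17 were tested, and 0 were called by edgeR between the populations in either culture. At an unadjusted p under 0.05 there were 2 in control culture and 1 with NR, and DESeq2 called 1 lower and 0.

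Mmrn1 (ENSMUSG00000054641, chr6:60924976-60989378, plus strand), the secreted member, was the most abundant per exon length. Control LT-HSCs had 675, 707 and 662 CPM (681 ± 23.1), NR LT-HSCs 884, 818 and 706 CPM (802 ± 90.1), control ST-HSCs 377, 416 and 391 CPM (394 ± 19.6) and NR ST-HSCs 379, 370 and 331 CPM (360 ± 25.3). All LT-HSC libraries lie above all ST-HSC libraries, while NR and control overlap within each population. The log2 difference was 0.79 ± 0.08 (1.73-fold; adjusted p = 6.03e-05) in control culture and 1.16 ± 0.08 (2.23-fold; adjusted p = 2.65e-06) with NR. Of 8 listed EMILIN and multimerin family genes and partners 7 were tested, with 0 higher in LT-HSCs and 2 lower in control culture (Emilin2 and the integrin gene Itga2b) and 1 with NR. Emilin2, an extracellular matrix glycoprotein with an EMI domain as Mmrn1 has, was lower in LT-HSCs by -2.01 ± 0.12 (adjusted p = 1.41e-06) in control culture and -2.45 ± 0.13 (adjusted p = 2.73e-07) with NR.

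Sult1a1 (ENSMUSG00000030711, chr7:126672865-126676432, minus strand), the enzyme of the set, had the largest fold. Control LT-HSCs had 6.31, 9.36 and 7.66 CPM (7.78 ± 1.53) and NR LT-HSCs 7.5, 7.9 and 8.51 CPM (7.97 ± 0.51). Control ST-HSCs had 0.951, 0.608 and 0.981 CPM (0.847 ± 0.207) and NR ST-HSCs 3.5, 2.04 and 2.14 CPM (2.56 ± 0.817). The LT-HSC groups overlap each other and lie above NR ST-HSCs, which lie above control ST-HSCs. The log2 difference was 3.19 ± 0.26 (interval 2.62 to 3.76; 9.11-fold; adjusted p = 1.17e-05) in control culture and 1.63 ± 0.24 (3.10-fold; adjusted p = 0.000895) with NR. Its exons share 61 bases (4.0% of its exon length) with Sgf29 on the opposite strand. Of 14 sulfotransferase and sulfate donor genes 10 were tested, Sult1a1 among them, and it was the only 1 called between LT-HSCs and ST-HSCs in either culture.

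**Figure D2:**
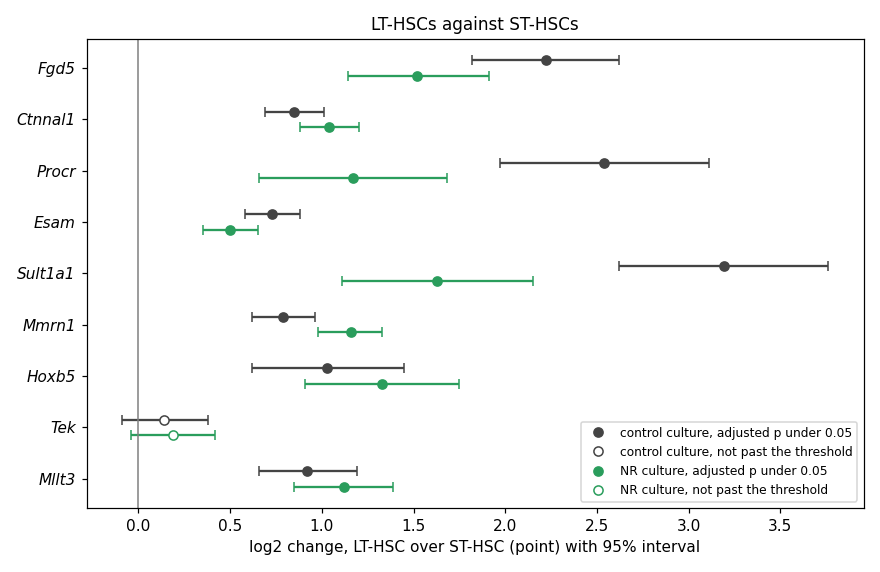
Log2 difference of LT-HSCs against ST-HSCs for each member (horizontal axis) in control culture and with NR, with 95% intervals from edgeR's fit. All 9 values lie to the right of 0 in both cultures, and the interval of Tek alone crosses 0, with Sult1a1, Procr and Fgd5 farthest out in control culture.

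The other HSC genes and the progenitor genes give the setting of these differences. Of 45 further HSC genes 27 were higher and 1 lower in LT-HSCs in control culture, and again 27 and 1 with NR, with medians of 0.67 and 0.65. The homeobox gene Nkx2-3 was higher by 1.58 ± 0.12 in control culture (adjusted p = 5.87e-06) and the transglutaminase gene Tgm2 by 1.23 ± 0.09 (adjusted p = 2.6e-06). Of 22 genes primed in progenitors 0 were higher and 11 lower in LT-HSCs in control culture, and 0 and 8 with NR. Cd34, on which the cells were sorted, and Cd48 are in this list, and Gata1, an erythroid and megakaryocytic transcription factor, was lower by -0.99 ± 0.12 (adjusted p = 0.000204) in control culture.

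Markers of other cells that use some of these genes moved in part with the populations. Of 18 endothelial markers 14 were tested; 4 were higher and 1 lower in LT-HSCs in control culture, and 6 and 1 with NR. Their summed level was 514 to 527 CPM in control LT-HSCs, 532 to 618 CPM with NR, 384 to 400 CPM in control ST-HSCs and 428 to 442 CPM with NR, most of it Tie1, which averaged 366, 417, 261 and 289 CPM in that order. Cldn5, Lyve1, Sox17, Esm1 and Aplnr stayed under 1 CPM in every library, Cdh5 (VE-cadherin) reached at most 1.04 CPM, and 0 of the 18 were at 0 counts throughout. Of 18 megakaryocyte and platelet markers 3 were higher and 2 lower in LT-HSCs in each culture, and their sums ran from 4950 to 5520 CPM in control LT-HSCs and from 4690 to 5070 CPM in control ST-HSCs. The part of either list in the members' differences was not tested.

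The second question was what NR does to these genes within each population. In ST-HSCs 4 members were called higher with NR and 1 lower, where 5.82% of all genes were higher and 11.1% lower. The same members had groups that did not overlap, against 11.9% of all genes with higher and 20.9% with lower non-overlapping groups. The members' median was 0.12 and that of all genes -0.03. The split of all calls depended on the scaling, the filter and the libraries. In the main fit, with TMM factors, 34.5% of calls were higher. The share was 51.7% with the factors of the relative log expression method, 47.9% with scaling to the upper quartile and 50.7% in DESeq2. With TMM factors kept it was 52.4% with no filter and 57.7% without NR sample 3 of ST-HSCs. The 5 members kept their calls and directions under each of these settings.

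Procr rose most, by 2.11 ± 0.26 (log2; interval 1.55 to 2.68; 4.33-fold; adjusted p = 0.000169). It was followed by Sult1a1 at 1.59 ± 0.26 (1.02 to 2.16; 3.01-fold; adjusted p = 0.00113), Fgd5 at 0.94 ± 0.18 (0.54 to 1.33; 1.92-fold; adjusted p = 0.00334) and Esam at 0.35 ± 0.07 (1.27-fold; adjusted p = 0.00395). In Procr, Fgd5, Sult1a1 and Esam alike, sample 2 was the lowest NR ST-HSC library and still lay above every control. Ctnnal1 moved against them and fell by -0.47 ± 0.07 (-0.63 to -0.31; 0.721-fold; adjusted p = 0.000853). Without the 2 NR libraries richest in reads in no annotated gene the values were 2.00 for Procr, 1.79 for Sult1a1, 0.88 for Fgd5, 0.44 for Esam and -0.35 for Ctnnal1, and all 5 stayed called. The other 4 members did not pass: Mmrn1 at -0.13 ± 0.08 (adjusted p = 0.343), Hoxb5 at -0.16 ± 0.20 (adjusted p = 0.778), Tek at 0.12 ± 0.11 (adjusted p = 0.611) and Mllt3 at 0.11 ± 0.12 (adjusted p = 0.716).

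In LT-HSCs NR left 0 members called higher and 1 lower, against 2.38% and 7.58% of all genes. At an unadjusted p under 0.05 there were 4 members (Ctnnal1, Procr, Mmrn1 and Mllt3), and DESeq2 called these 4, 3 higher and 1 lower. Over all genes 21.6% had such a p in edgeR, and DESeq2 called 1137 higher and 1698 lower. Groups did not overlap for 3 members with higher NR values (Fgd5, Procr and Mllt3) and 1 with lower (Ctnnal1), against 8.57% and 15.9% of all genes. Ctnnal1 fell by -0.28 ± 0.07 (interval -0.44 to -0.12; 0.824-fold; adjusted p = 0.0285), and this call was lost at -0.20 (adjusted p = 0.209) without the 2 NR libraries named above. It was also lost with relative log expression factors (-0.23, adjusted p = 0.0776), with no filter (-0.23, adjusted p = 0.193), in a fit of LT-HSCs alone (-0.23, adjusted p = 0.0866), and on leaving out control sample 1 or 2 or NR sample 2 or 3 of LT-HSCs, or NR sample 3 of ST-HSCs. Procr was at 0.74 ± 0.23 (0.24 to 1.24; 1.67-fold; adjusted p = 0.0637), Mllt3 at 0.31 ± 0.12 (adjusted p = 0.148), Mmrn1 at 0.24 ± 0.08 (adjusted p = 0.0848) and Fgd5 at 0.24 ± 0.17 (adjusted p = 0.488). With the sample number as a replicate block, which pairs these libraries, 3 members were called: Ctnnal1 at -0.28 (adjusted p = 0.00764), Procr at 0.74 (adjusted p = 0.0438) and Mmrn1 at 0.23 (adjusted p = 0.0272). Over the 9 alternative settings that leave out no single library Mmrn1 was called higher in 8 (adjusted p 0.00155 to 0.091), Procr in 5 (0.00274 to 0.0811), Mllt3 in 5 (0.0218 to 0.191) and Esam in 1 (0.0224 to 0.504). Without the 2 NR libraries Mmrn1 was at 0.34 (adjusted p = 0.0122), Procr at 0.77 (adjusted p = 0.0811) and Mllt3 at 0.35 (adjusted p = 0.191). The remaining values were 0.12 ± 0.07 for Esam (adjusted p = 0.394), 0.03 ± 0.23 for Sult1a1 (adjusted p = 0.952), 0.14 ± 0.19 for Hoxb5 (adjusted p = 0.742) and 0.17 ± 0.11 for Tek (adjusted p = 0.427). The share of higher calls over all genes was 23.9% in the main fit with TMM factors. It was 37.4% with the factors of the relative log expression method, 35.3% with scaling to the upper quartile and 40.1% in DESeq2. With TMM factors kept it was 42.1% with no filter and 44% at a mean of at least 5 CPM.

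**Figure D3:**
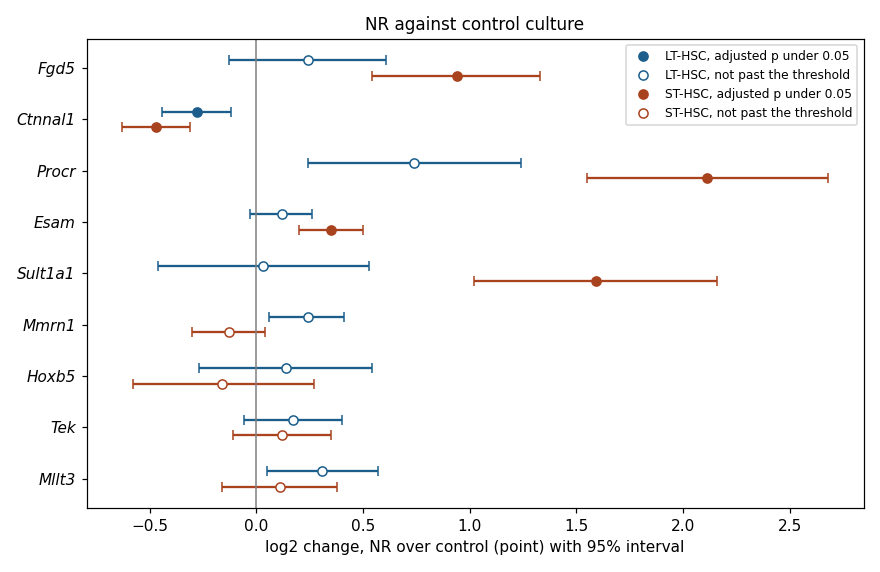
Log2 difference of NR against control for each member (horizontal axis) in LT-HSCs and in ST-HSCs, with 95% intervals from edgeR's fit. Procr, Sult1a1, Fgd5 and Esam lie above 0 and Ctnnal1 below 0 in ST-HSCs, while in LT-HSCs the interval of Sult1a1 is centred near 0.

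Averaged over both populations, 4 members rose with NR and 1 fell, against 7.88% and 16.1% of all genes: Procr by 1.43 ± 0.18 (adjusted p = 7.05e-05), Sult1a1 by 0.81 ± 0.17 (adjusted p = 0.00379), Fgd5 by 0.59 ± 0.12 (adjusted p = 0.00357) and Esam by 0.23 ± 0.05 (adjusted p = 0.00358), with Ctnnal1 at -0.38 ± 0.05 (adjusted p = 0.000178). These 5 kept their calls in each alternative that tested them, 6 members being called without the 2 NR libraries. Mllt3, at 0.21 (adjusted p = 0.106), was called higher in 6 of 8 alternatives (adjusted p 0.00933 to 0.0826), and Mmrn1 and Tek in 2 each. The share of higher calls over all genes was 32.9% here, 48.5% with the factors of the relative log expression method and 48.6% with no filter. These averages use the same libraries as the separate comparisons and add no samples. Whether the NR effect differed between the populations was tested as the ST-HSC effect minus the LT-HSC effect. In edgeR 0 of 9 members were called, with 0.0101% of all genes called in either direction, and 5 of 9 had an unadjusted p under 0.05, as 6.06% of all genes did. Those 5 were Sult1a1 at 1.56 ± 0.35 (adjusted p = 0.274), Procr at 1.37 ± 0.35 (adjusted p = 0.389), Fgd5 at 0.70 ± 0.25 (adjusted p = 0.643), Esam at 0.23 ± 0.10 (adjusted p = 0.761) and Mmrn1 at -0.37 ± 0.11 (adjusted p = 0.573). DESeq2 called 2 of them, Sult1a1 at 1.58 (adjusted p = 0.0231) and Procr at 1.40 (adjusted p = 0.035). Over all genes DESeq2 called 95 higher and 41 lower in this comparison, more than edgeR did. For Sult1a1, whether the difference passed depended on the tool. For Procr it also depended on the filter and on single libraries. EdgeR called it with no filter (1.41, adjusted p = 0.0171) and without ST-HSC NR sample 2 (1.64, adjusted p = 0.0446). The difference of the NR effects is the same, with its sign turned, as the change of the LT-HSC against ST-HSC difference from control culture to NR.

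In the protein C pathway 7 of 11 genes were tested. In ST-HSCs 1 was higher and 2 lower with NR: Thbd, thrombomodulin, which works beside EPCR in activating protein C, fell by -0.89 ± 0.14 (adjusted p = 0.000732) where Procr rose, and F2rl2, a thrombin receptor, rose by 0.40 ± 0.10 (adjusted p = 0.0154). In LT-HSCs 0 of the 7 were called by edgeR, 1 had an unadjusted p under 0.05 and DESeq2 called 1 higher. Proc, the ligand's own gene, stayed under 1 CPM in every library. Among 11 junctional adhesion partners of Esam NR gave 2 higher and 2 lower in LT-HSCs and 1 higher and 4 lower in ST-HSCs. F11r, which encodes JAM-A, rose by 0.27 ± 0.06 in LT-HSCs (adjusted p = 0.017) and by 0.47 ± 0.06 in ST-HSCs (adjusted p = 0.000346), and Podxl, podocalyxin, fell by -1.21 ± 0.23 (adjusted p = 0.00511) and -1.14 ± 0.24 (adjusted p = 0.00503).

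Around TIE2 NR gave 1 gene higher and 1 lower of 8 in each population. Dok2, an adaptor of the receptor, rose by 0.40 ± 0.07 in LT-HSCs (adjusted p = 0.00476) and 0.33 ± 0.08 in ST-HSCs (adjusted p = 0.00873), and the phosphatase gene Ptpn11 fell by -0.45 ± 0.08 (adjusted p = 0.00292) and -0.40 ± 0.08 (adjusted p = 0.00284). Of the 17 elongation and DOT1L complex genes the methyltransferase gene Dot1l was the 1 lower, by -0.33 ± 0.08 in LT-HSCs (adjusted p = 0.0247) and -0.46 ± 0.08 in ST-HSCs (adjusted p = 0.00234). In LT-HSCs 0 of them were higher, and in ST-HSCs 1 was, Ell2, by 0.40 ± 0.12 (adjusted p = 0.0319). Of the 7 tested EMILIN and multimerin genes and partners 0 were higher and 2 lower in LT-HSCs, and 0 and 4 in ST-HSCs. Among these, Emilin2 fell by -1.44 ± 0.13 in LT-HSCs (adjusted p = 6.15e-05) and -1 ± 0.12 in ST-HSCs (adjusted p = 0.000132), and Mmrn1 itself is given above.

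In the wider list of 45 HSC genes NR gave 6 higher and 5 lower in LT-HSCs and 12 higher and 11 lower in ST-HSCs, with medians of -0.05 and 0.09. The GTPase gene Gimap6 rose by 0.63 ± 0.09 (adjusted p = 0.00103) and 1.00 ± 0.09 (adjusted p = 1.57e-05) in the 2 populations. Vwf, von Willebrand factor, fell by -1.07 ± 0.17 (adjusted p = 0.00171) and -2.23 ± 0.17 (adjusted p = 5.45e-06), opposite in sign to Procr. Endothelial markers gave 0 edgeR calls with NR in LT-HSCs (3 at an unadjusted p under 0.05, and 2 higher in DESeq2) and 1 higher and 1 lower in ST-HSCs; megakaryocyte markers gave 1 higher and 4 lower in LT-HSCs and 3 higher and 5 lower in ST-HSCs. Without the 2 NR libraries named above, the HSC list gave 11 higher and 4 lower in LT-HSCs and 16 higher and 9 lower in ST-HSCs, and the endothelial list 2 higher and 0 lower and 2 higher and 3 lower. The number of higher genes in LT-HSCs was 3 without either LT-HSC control sample 1 or 2 or without NR sample 1 of LT-HSCs.

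Genes with the most similar profile to each member were found by Pearson correlation of log2 CPM over the 12 libraries, among 9988 genes with a mean of at least 5 CPM. The libraries fall into 4 groups, so these values reflect differences between groups as well as those within them, and they carry no p. Procr ran closest to Myof, the membrane repair protein myoferlin (r = 0.984, rho = 0.944), and to Gata3, a GATA transcription factor (r = 0.977, rho = 0.937). With NR in ST-HSCs the log2 difference was 1.53 for Myof and 0.57 for Gata3, values that the choice of these genes already used. Fgd5 ran closest to Gas6, the ligand of the TAM receptors (r = 0.981, rho = 0.958), and to Smagp (r = 0.976, rho = 0.86). Esam ran closest to Nkx2-3 (r = 0.99, rho = 0.965) and Smagp (r = 0.984, rho = 0.965), and Sult1a1 to Selenom, a selenoprotein gene (r = 0.984, rho = 0.965), and Smagp (r = 0.975, rho = 0.93). Smagp, a small transmembrane glycoprotein of cell adhesion, thus stood among the nearest genes of 3 members.

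Ctnnal1, the member that fell with NR, had other neighbours: Fhl1, a LIM domain protein (r = 0.99, rho = 0.979), and Clu, the chaperone clusterin (r = 0.986, rho = 0.972). Their log2 differences with NR in ST-HSCs, likewise used in the choice, were -0.47 and -1.13. Mmrn1 ran closest to Card10 (r = 0.977, rho = 0.923) and Igf2bp2, an RNA-binding protein (r = 0.974, rho = 0.79). Hoxb5 ran closest to Prkag2, a subunit of AMP-activated kinase (r = 0.98, rho = 0.916), and Maged2 (r = 0.974, rho = 0.909). Mllt3 ran closest to Dsg2, a desmosomal cadherin (r = 0.973, rho = 0.944), and Jam2, a junctional adhesion molecule (r = 0.97, rho = 0.979). Tek, whose groups overlap, had the lowest values, with Hip1 at r = 0.876 (rho = 0.839) and Esyt2 at r = 0.873 (rho = 0.755).

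**Figure D4:**
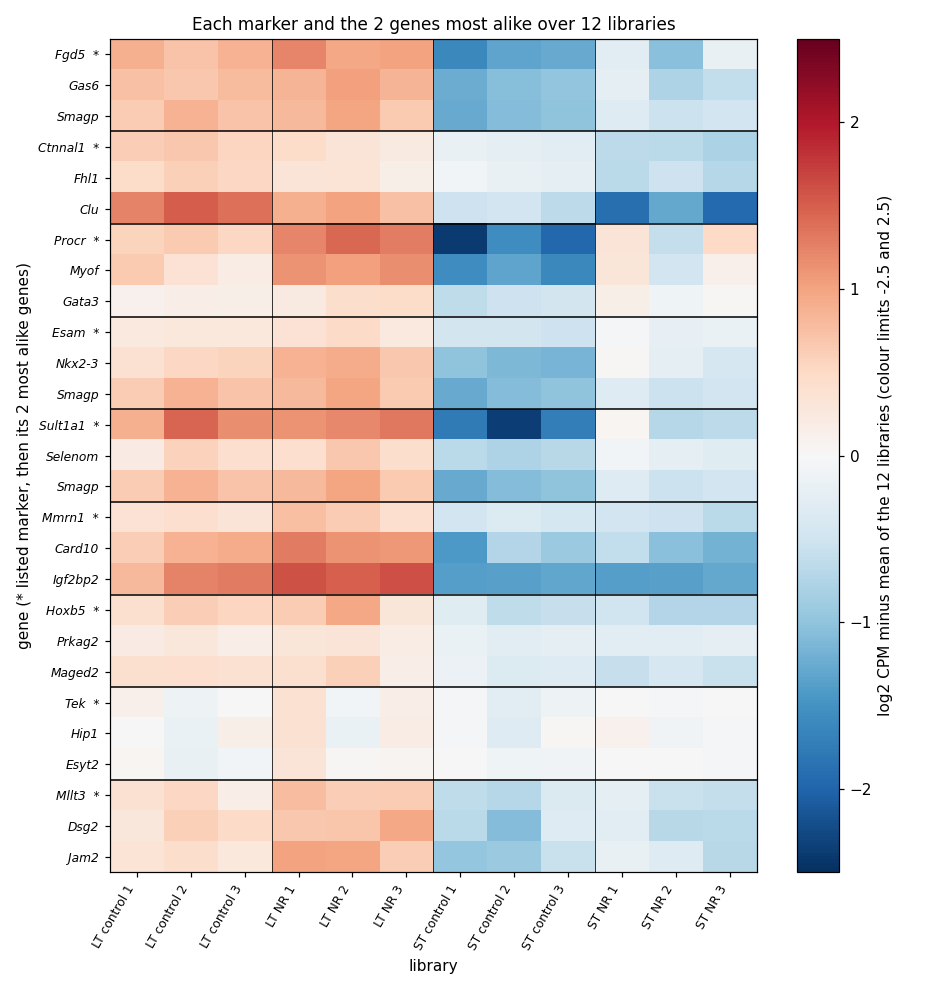
Log2 CPM of each member and of its 2 nearest genes, centred on each gene's mean (colour scale), in the 12 libraries; rows are genes in blocks by member and columns are libraries by group. Ctnnal1 with Fhl1 and Clu is lowest in NR ST-HSCs, while Procr, Fgd5, Sult1a1 and Esam with their neighbours are lowest in control ST-HSCs.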

How the data were processed

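RNA was measured by bulk RNA-seq in 12 libraries, which the labels' protocols describe as SMART-seq v4 cDNA from 2.5 ng RNA, tagmented with Nextera XT. The authors deposited whole-number counts, unnormalized, for each Ensembl gene and library. FastQC 0.11.2, STAR 2.5.0b and HTSeq 0.6.1 are named in the submitters' processing notes, with no build, annotation or strand setting given in the sources used here. Of the 53465 genes 53274 had a symbol in GENCODE M21 (GRCm38), which also gave exon lengths. Each library is 1 column, and 0 columns were not used. Reads in no annotated gene (8.69% to 28.5%) and ambiguous reads (3.30% to 4.38%) entered neither library sizes nor tests. No pair of replicates was a duplicate (chi-square per degree of freedom 5.46 to 32.3).

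The labels gave the groups. Genes were kept by filterByExpr (minimum count of 10 and minimum total of 15, by group), leaving 19830, and were tested with edgeR 4.0.16 (quasi-likelihood, two-sided, TMM factors, R 4.3.3) on all 12 libraries with 4 group means and 8 residual degrees of freedom. P-values were Benjamini-Hochberg adjusted over those genes in each of 7 comparisons, and genes under 0.05 were called. The biological coefficient of variation was 0.402. Standard errors and 95% intervals are those of the log2 change. The edgeR step was tested on simulated data.

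The members and the gene lists were chosen with earlier results of these data known. All 9 members are named in every comparison, from each list up to 4 called genes with the smallest p, and for each member the 2 genes with the highest correlation (mean of at least 5 CPM, prior count 2, predicted genes and pseudogenes left out). Deviations from group means of same-numbered samples correlated at 0.49, 0.24 and 0.50 between control and NR LT-HSCs, and at 0.63, 0.33 and 0.60 between NR LT-HSCs and NR ST-HSCs. By a limit of 0.1 in every pair these numbers pair the libraries; the labels do not state a pairing. They correlated at 0.21, -0.01 and 0.24 between control and NR ST-HSCs and at -0.01, 0.03 and 0.11 between the control groups, which do not pair. Alternatives were upper-quartile scaling, relative log expression scaling, DESeq2 1.42.0, no filter, a mean of at least 5 CPM, a replicate block, the unassigned share as covariate, dropping the 2 libraries with the highest unassigned share, fitting only the 2 groups compared, and leaving out each library.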

Additional observations from a re-analysis of the deposited data

How the results depend on the processing

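The 16 calls of LT-HSCs against ST-HSCs and the 5 calls of NR in ST-HSCs were kept in every alternative that tested the gene; a mean of at least 5 CPM drops Hoxb5 and Sult1a1. In LT-HSCs the number of members called with NR, 1 in the report, was 2 with upper-quartile factors, 4 in DESeq2, 2 with no filter, 5 at a mean of at least 5 CPM, 3 with the replicate block, 3 with the covariate and 3 with only the 2 groups compared. The calls over all genes moved too. They were 472 higher and 1503 lower in the report, 829 and 1519 with upper-quartile factors, 1137 and 1698 in DESeq2 and 685 and 944 with no filter. At a mean of at least 5 CPM they were 1258 and 1604 of 10473 genes. The block gave 670 and 1898, the covariate 693 and 1662, and the 2 groups alone 730 and 1126. Leaving out 1 library gave 0 to 2 called members, with 0 without LT-HSC control sample 1 or 2 or NR sample 2, and 2 without ST-HSC NR sample 2. Ctnnal1 in LT-HSCs ranged from -0.35 to -0.22 over those 12 fits (adjusted p 0.034 to 0.243). The difference of the NR effects, with 0 members called, gave 2 in DESeq2, 1 with no filter (Procr, 1.41, adjusted p = 0.0171) and 0 to 1 without 1 library, the 1 being Procr without ST-HSC NR sample 2 (1.64, adjusted p = 0.0446). Over all genes the calls were 95 higher and 41 lower in DESeq2, 33 and 10 with no filter, and 7 and 10 without that library. Signs turned only for uncalled values. Averaged over both populations, Hoxb5 (-0.01) was 0.05 under relative log expression scaling, 0.04 under upper-quartile scaling, 0.05 in DESeq2, 0.05 with no filter, 0.03 with the covariate and 0.13 without the 2 libraries, where Mmrn1 in ST-HSCs was 0.00. Leaving out 1 library turned the sign of Hoxb5 averaged (-0.05 to 0.07), Hoxb5 in LT-HSCs (0.00 to 0.29), Sult1a1 in LT-HSCs (-0.10 to 0.19), Mllt3 in ST-HSCs (-0.01 to 0.26), Mmrn1 in ST-HSCs (-0.17 to 0.00) and the difference for Tek (-0.13 to 0.12). Of 1282 member values in all settings 1214 kept sign and side of the threshold, 9 lost and 38 gained a call, and 21 changed sign. The cause was not tested. Beyond adding Procr and Mmrn1 in LT-HSCs, the replicate block changed no member's call in any comparison. Sult1a1 in control ST-HSCs rests on 17 to 32 reads per library, the fewest of any member in any group.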

Other observations

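Some genes of the marker lists, named because their p was among the smallest of their list, moved with NR in both populations. Most genes of these lists were not called. Cd68, a lysosomal protein of macrophages, rose by 0.84 ± 0.20 in LT-HSCs (edgeR, adjusted p = 0.0187) and 2.17 ± 0.21 in ST-HSCs (adjusted p = 2.73e-05), and Fcer1g, a signalling chain of Fc receptors, by 0.50 ± 0.09 (adjusted p = 0.00431) and 0.96 ± 0.09 (adjusted p = 2e-05). They are among 15 myeloid markers, of which 2 rose and 0 fell in LT-HSCs and 3 rose and 0 fell in ST-HSCs. The erythropoietin receptor gene Epor fell by -0.71 ± 0.14 (adjusted p = 0.00744) and -1.04 ± 0.15 (adjusted p = 0.000387), the 1 of 9 tested erythroid markers called in each population.

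Between the populations, the hemoglobin gene Hbb-bt was higher in LT-HSCs by 2.37 ± 0.16 in control culture (edgeR, adjusted p = 2.55e-06) and 1.94 ± 0.16 with NR (adjusted p = 9.66e-06). Hbb-bt has near-identical paralogs, so its share of reads depends on how the counting treated them. The platelet-derived growth factor receptor gene Pdgfrb was lower in LT-HSCs by -1.98 ± 0.19 (adjusted p = 4.15e-05) and -1.99 ± 0.20 (adjusted p = 4.29e-05). Gzmb, granzyme B, was lower by -2.47 ± 0.36 (adjusted p = 0.000912) and -2.47 ± 0.37 (adjusted p = 0.000999). Of 9 tested lymphoid markers 0 were called by edgeR or by DESeq2 between the populations or with NR in either. In edgeR 0 had an unadjusted p under 0.05 within single cultures or populations, and 1 did for LT-HSCs against ST-HSCs averaged over both cultures. Summed lymphoid levels ran from 27.7 to 37.2 CPM over the 12 libraries, most of it Cd79b, which averaged 26.7 to 32.5 CPM in the 4 groups. Of the 12 listed lymphoid markers 8 stayed under 1 CPM in every library.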
